A study of Mus musculus with 11 samples.

Results

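The extracellular matrix is the meshwork of collagens, glycoproteins and proteoglycans that surrounds muscle fibres and continues into tendon. Fibrillar collagens bear load, the basement membrane sheathes each fibre and capillary, small leucine-rich proteins set the width of collagen fibrils, and adhesive glycoproteins tie cells to the meshwork. Tendon cells are marked by the transcription factors scleraxis (Scx) and mohawk (Mkx) and by the membrane protein tenomodulin (Tnmd), and a muscle removed together with its tendon carries tendon RNA with it. The genes described here are 47 named matrix and tendon genes, taken from a list of symbols that was drawn up with earlier results of these data known, out of 13359 genes listed for either muscle. All 47 are among the 13121 genes listed for soleus, and 46 are among the 12366 listed for quadriceps, where Timp1 is not listed. Every listed member passed the filter on low values.

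RNA was sequenced from soleus, a postural calf muscle rich in slow fibres, and from the thigh muscle that the labels call Quad (quadriceps), in mice aged 2.5 months. Myc-labelled mice had a doxycycline-inducible system for overexpressing Myc, were given the drug overnight and were sampled 12 hours after it was taken away; the controls were of the same age. Whether the controls carried any transgene or received the drug, and which promoter drove the system, is not given in the sources used here. Soleus was sampled in 3 control and 4 Myc-labelled libraries, of 11.1 to 14.9 M estimated reads, and quadriceps in 2 of each kind, of 14.2 to 18.4 M. Among the 4 quadriceps columns, those with a C after MYC in their name were read as controls. The labels do not say that the libraries of a group came from separate animals, so the p-values measure only the spread between these samples.

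As a check of the labels, the Myc row itself held 30, 54.3 and 28.2 in the soleus controls and 26.3, 31, 28.8 and 27.7 in the Myc-labelled libraries, a log2 change of -0.33 (limma, adjusted p = 0.69). In quadriceps it held 114 and 55.7 against 86.4 and 33.6 (log2 change -0.55, limma, adjusted p = 0.934). The Myc row therefore did not separate the groups, and directions below rest on the labels. Gnl3, a nucleolar GTPase, was 216, 276 and 219.5 in soleus controls and 1146, 1186, 1399 and 1186 with the Myc label (log2 change 2.37, adjusted p = 2.11e-08). It was 436 and 332 in quadriceps controls and 1042 and 946 with the Myc label there. That log2 change was 1.38 (limma, adjusted p = 0.195). Summed markers of muscle fibres were 1.56 to 1.98 M in soleus and 2.53 to 3.31 M in quadriceps, so muscle fibre markers were abundant in every library. The summed slow fibre markers were 26458 and 191727 in the 2 quadriceps controls and 2017 and 3554 in the Myc-labelled quadriceps libraries, so both controls were above them and quadriceps control replicate 2 stood apart from the other 3.

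No member passed the test in either muscle. Values below are the authors' normalised read counts, log2 changes are Myc-labelled minus control on the log2(value + 1) scale, and a change was called at a limma adjusted p under 0.05 over all genes tested. Values are in replicate order, and where sets are joined by "against" the controls come first. In soleus 0 of 47 members were called, where 9.29% of the 12745 genes tested were (7.06% higher and 2.23% lower). At an unadjusted p under 0.05, 9 members (19.1%) were lower and 0 higher, against 8.77% and 12.9% of all genes. In quadriceps 0 of 46 were called (0.00815% of 12270 genes) and 0 had an unadjusted p under 0.05 in either direction, against 3.97% of all genes for higher and 2.24% for lower values. The change in soleus differed from that in quadriceps for 0 of 46 members (0% of 11971 genes), 0 of them at an unadjusted p under 0.05 (2.59% of all genes with a more positive and 0.593% with a more negative change in soleus). With limma-voom on estimated reads 0 members were called in any of the 3 comparisons. In soleus 3 members passed without robust moderation (Chad, Fmod and Thbs2) and 3 without Myc-labelled replicate 1 (Col11a1, Comp and Thbs2). Of all genes 8.62% and 7.78% were called there. With replicate 2 left out 1 member passed (Col6a3), and with replicate 3 left out 1 (Chad), against 7.96% and 7.53% of all genes. Without both replicates 3 and 4, 2 passed (Chad and Fmod), against 4.94%. Without quadriceps Myc-labelled replicate 2 the median change of the members was -0.76, with 45 of 46 negative. That fit left replicate 1 as the lone Myc-labelled library, assumed to vary like the controls.

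The sizes of the changes were mostly below zero. In soleus 39 of 47 members (83%) had a negative log2 change, against 54.4% of all genes, and the median was -0.48 against -0.03. In quadriceps 39 of 46 (84.8%) were negative, against 54.2% of all genes, with a median of -0.24 against -0.03. Log2 changes of -0.5 or less were found for 23 members in soleus (48.9%, against 11.4% of all genes) and for 16 in quadriceps (34.8%, against 10.7%). Changes of 0.5 or more were found for 0 members in either muscle, against 10.3% and 6.39% of all genes. The median of the soleus change minus the quadriceps change was -0.02. In whole muscle, fewer matrix-making cells and less of these transcripts per cell cannot be told apart.

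Most of the low values came from few libraries. In soleus the lowest of the 7 values was in Myc-labelled replicate 3 for 40 of 47 members (85.1%, against 16.4% of all genes). Replicates 3 and 4 held the 2 lowest of all 7 values for 29 members (61.7%, against 9.26%). The highest value was in control replicate 2 for 24 members (51.1%, against 14.6%). In quadriceps the lowest of the 4 values was in Myc-labelled replicate 1 for 43 of 46 members (93.5%, against 29.6%), while the other Myc-labelled library held the highest for 26 (56.5%, against 20.7%). Within the Myc-labelled quadriceps pair, replicate 1 was thus low and replicate 2 high for many members.

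The same split is seen when each library is set against the control mean of its muscle. The median member lay at 0.06, 0.16 and -0.21 (log2) in the soleus controls and at -0.01, -0.01, -1.09 and -0.67 in Myc-labelled replicates 1 to 4. In quadriceps it lay at -0.11 and 0.11 in the controls and at -0.76 and 0.27 with the Myc label. The median of all genes tested lay between -0.01 and 0.01 in each library. Without both soleus replicates 3 and 4 the soleus median was -0.004, with 25 of 47 members negative. Without quadriceps Myc-labelled replicate 1 the quadriceps median was 0.27, with 8 of 46 negative, and without the control that stood apart (replicate 2) it was -0.10, with 32 negative.

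**Figure D1:**
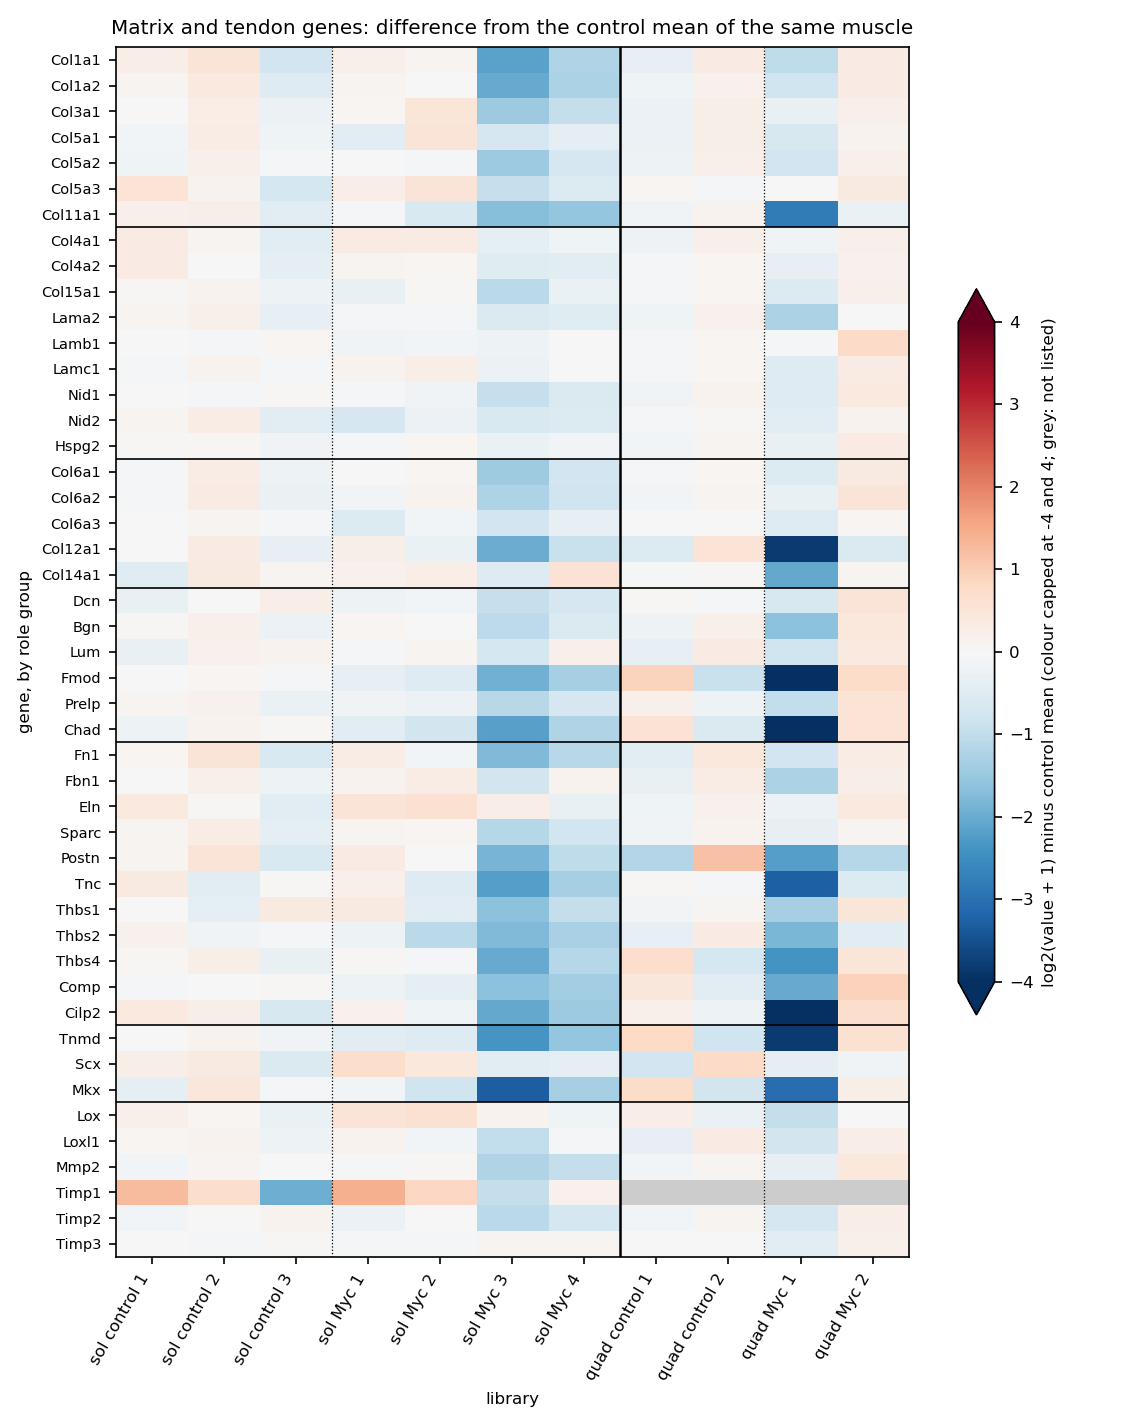
Difference of each library from the control mean of its muscle, in log2(value + 1), for the 47 members (rows, grouped by role with lines between groups) in 11 libraries (columns); blue is lower, red is higher, and grey marks Timp1 in quadriceps, where it is not listed. Soleus Myc-labelled replicate 3 is the lowest of the soleus libraries for 40 members and quadriceps Myc-labelled replicate 1 the lowest of its muscle for 43.

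Summed over the members, normalised values were 69152, 76082 and 56344 in the soleus controls and 67233, 66418, 32712 and 41922 in the Myc-labelled libraries. In quadriceps the sums were 42178 and 47732 in controls and 28854 and 54414 with the Myc label. The groups overlapped in both muscles. Tendon and cartilage markers that are not members were lowest in the same libraries: their sums were 7170.3, 7907 and 6283 in soleus controls, 7386, 5939, 3247 and 4322 in Myc-labelled soleus, 3887 and 3394 in quadriceps controls and 1524 and 4273 in Myc-labelled quadriceps. Of the 21 markers on that list 15 were tested in soleus and 13 in quadriceps. The cartilage genes Acan, Col9a1 and Col10a1 are not listed for either muscle.

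Sums over markers of other cells were lowest in some of the same libraries, with differing spread. Endothelial markers summed to 14369.7, 13560.1 and 13868 in soleus controls and 12839, 13237, 12073 and 11236 in Myc-labelled soleus, where each Myc-labelled sum was below each control. In quadriceps they summed to 6534 and 7499 in controls and 5603 and 7210.2 with the Myc label. Fibroblast markers summed to 12726, 15402 and 19047 against 12489, 17168, 11009 and 11755 in soleus, and to 16394 and 21551 against 13228 and 24163 in quadriceps. Their soleus groups overlapped, and replicates 3 and 4 were again the lowest. Muscle fibre markers in quadriceps summed to 3.18 M and 2.74 M in controls and 3.31 M and 2.53 M with the Myc label. Macrophage markers summed to 988, 1413 and 1333 against 971, 1302, 583 and 999 in soleus and to 1284 and 2762 against 869 and 2072 in quadriceps, lowest in soleus Myc-labelled replicate 3 and quadriceps Myc-labelled replicate 1, as the members were. Erythroid markers summed to 7704, 7449.9 and 7444 against 6002, 7523, 4305 and 3277 in soleus and to 2448 and 1708 against 1493 and 3901 in quadriceps. Schwann cell markers summed to 2141, 3006 and 3075 against 2459, 5734, 3600.5 and 2912 in soleus. In quadriceps the 6 that are listed summed to 889 and 1040 against 697 and 1295. Adipocyte markers summed to 33012, 29910 and 37133 against 27023, 27691, 24271 and 30908.5 in soleus. In quadriceps they summed to 23758 and 48036 against 42884 and 10269.6. Mural cell markers summed to 88214, 95566 and 85032 against 81452, 85886, 99109 and 88048.5 in soleus. In quadriceps they summed to 69492 and 79883 against 72431.5 and 65417. Erythroid sums were lowest in soleus Myc-labelled replicates 3 and 4 and quadriceps Myc-labelled replicate 1. Schwann cell sums were lowest in a soleus control and in quadriceps Myc-labelled replicate 1. Adipocyte sums were lowest in soleus Myc-labelled replicate 3 and quadriceps Myc-labelled replicate 2. Mural cell sums were lowest in soleus Myc-labelled replicate 1 and quadriceps Myc-labelled replicate 2, and highest of soleus in Myc-labelled replicate 3. The mural list holds Des, which is also on the muscle fibre list, so these sums are not of mural cells alone. The part of Des in them was not tested. The part of tendon or of other cells in the members' differences was not tested.

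**Figure D2:**
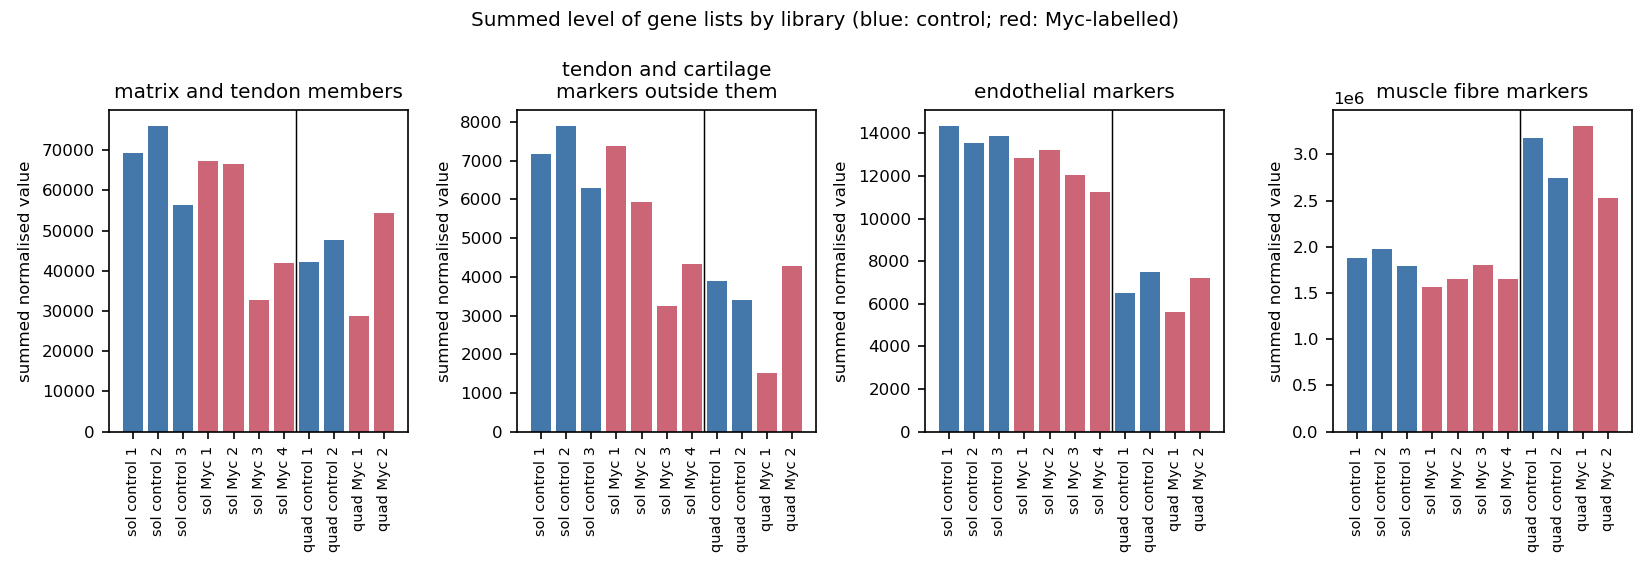
Summed normalised value (bars, linear axes from 0) of the members, of tendon and cartilage markers outside them, of endothelial markers and of muscle fibre markers, in each library; controls are blue and Myc-labelled libraries red, and the line parts soleus from quadriceps. Soleus Myc-labelled replicates 3 and 4 and quadriceps Myc-labelled replicate 1 have the lowest bars of their muscle in the first 2 panels.

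The fibrillar collagens, 7 of the members, are the rope-like collagens of tendon and of the tissue between fibres. Their median log2 change was -0.55 in soleus, where 7 of 7 were negative, and -0.26 in quadriceps, where 6 of 7 were, and 0 were called in either. Col1a1, the main chain of type I collagen, was 5238, 6246 and 2549 in soleus controls and 5016, 4684, 995 and 1894 in Myc-labelled soleus. Its partner Col1a2 was 5756, 7065 and 3737 against 5742, 5316, 1317 and 2226 (log2 change -0.79, SE 0.64, limma, adjusted p = 0.544). For both chains replicates 3 and 4 were below the other 5 libraries, Myc-labelled replicates 1 and 2 lay among the controls, and control replicate 3 was the lowest control. Without replicates 3 and 4 the change of Col1a2 was 0.05.

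In quadriceps Col1a1 was 1585 and 2498 in controls and 988 and 2519 with the Myc label, and Col1a2 was 2488 and 3208 against 1612 and 3532. The 2 Myc-labelled values enclosed both controls for each chain. Col11a1, which helps to start thin fibrils in cartilage and tendon, was 259, 266 and 166 in soleus controls and 211, 148, 67.9 and 76.2 in Myc-labelled soleus (log2 change -0.99, SE 0.39, 95% interval -1.85 to -0.12, limma, adjusted p = 0.167). In quadriceps Col11a1 was 44.1 and 54.9 against 6.17 and 40.5 (log2 change -1.54, SE 0.85, adjusted p = 0.869). Both Myc-labelled quadriceps values lay below both controls, replicate 1 at about 6 reads and replicate 2 close to control replicate 1. The soleus groups overlapped.

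Col5a2, a chain of the type V collagen that sits inside type I fibrils, was 397, 511 and 434 in soleus controls and 442, 429, 162 and 277 with the Myc label (log2 change -0.55, adjusted p = 0.428), and 348 and 466 against 238 and 466 in quadriceps. Only Myc-labelled replicates 3 and 4 were below the soleus controls. The other chains, Col3a1, Col5a1 and Col5a3, had soleus log2 changes between those of Col11a1 and zero, and their highest value was 3.83, 2.26 and 2.78 times their lowest over the 7 soleus libraries. Over the 4 quadriceps libraries the ratios were 1.44, 1.83 and 1.37, and Col5a3 was lowest in a control there.

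The 9 basement membrane genes varied least of the role groups in soleus. The range of a gene over libraries, as the highest minus the lowest log2(value + 1), had a median of 0.77 in soleus and 0.76 in quadriceps for this group, against 1.32 and 1.17 for all members and 0.81 and 0.56 for all genes. Their median change was -0.18 in soleus and -0.08 in quadriceps, with 7 and 6 of 9 negative and 0 called. Nid1, which links laminin to type IV collagen, was 1252, 1222 and 1285 in soleus controls and 1222, 1138, 655 and 832 in Myc-labelled soleus (log2 change -0.42, SE 0.19, adjusted p = 0.234). Its Myc-labelled values all lay below its controls, replicate 1 by less than 1 normalised read, and in quadriceps (1199 and 1437 against 916 and 1734) the Myc-labelled pair enclosed the controls.

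Nid2, the second nidogen, was 189.6, 219.6 and 132 in soleus controls and 110.1, 149.9, 114 and 120.3 with the Myc label (log2 change -0.52, adjusted p = 0.178), and 123 and 133 against 95.9 and 140.4 in quadriceps. It was the only member of this group whose lowest soleus value lay in Myc-labelled replicate 1, and 437 of its exonic bases lie on the opposite strand of Rtraf exons. Lama2, the laminin chain of the muscle fibre sheath, was 1109, 1173 and 818 against 989, 997, 689.7 and 735 in soleus (log2 change -0.28, adjusted p = 0.346). In quadriceps Lama2 was 679 and 861 against 317 and 754 (log2 change -0.64, SE 0.46, adjusted p = 0.897), lowest in Myc-labelled replicate 1 and with replicate 2 between the controls.

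Col15a1, a collagen at the outer face of the basement membrane, was 516, 546 and 434 in soleus controls and 401, 516, 233 and 413 with the Myc label, and 326 and 357 against 231 and 393 in quadriceps. The main type IV chains Col4a1 and Col4a2, the laminin chains Lamb1 and Lamc1 and the proteoglycan perlecan (Hspg2) had highest to lowest ratios of 1.22 (Lamb1) to 1.74 (Col4a2) in soleus and 1.33 (Col4a1) to 1.8 (Lamc1) in quadriceps. Hspg2 was 4740.4, 4818 and 4111 in soleus controls and 4297, 4781, 3756 and 4213 with the Myc label. Replicate 3 was again the lowest for Hspg2, but by less than the distance between control replicates 1 and 3.

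Col4a1 and Col4a2, the main chains of type IV collagen, lie head to head: they start 21 bases apart on opposite strands and share 22 exonic bases, in the GENCODE annotation of GRCm38. Their soleus log2 ranges were 0.76 and 0.80. Col4a1 was 3066, 2635 and 1829 in soleus controls and 3089, 3050.4, 1884 and 2157 with the Myc label, and Col4a2 was 3206, 2594 and 2012 against 2732, 2689, 1846 and 1899. Both were high in control replicate 1 and Myc-labelled replicates 1 and 2, and low in control replicate 3 and Myc-labelled replicates 3 and 4.

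Another 5 members are type VI collagen chains, which form beaded filaments around fibres, or collagens that sit on fibril surfaces. Their median change was -0.51 in soleus and -0.22 in quadriceps, with 4 of 5 negative in each and 0 called. Col6a3 was 403, 439 and 389.7 in soleus controls and 282, 380.04, 241 and 325 in Myc-labelled soleus (log2 change -0.44, SE 0.16, 95% interval -0.78 to -0.10, limma, adjusted p = 0.109). All 4 Myc-labelled values lay below the 3 controls, and here replicate 1 was lower than replicates 2 and 4. In quadriceps Col6a3 was 569 and 559 against 394 and 596, with the controls between the Myc-labelled values.

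The other 2 chains of type VI collagen had another order in soleus. Col6a1 was 1052, 1358 and 967 in controls and 1093, 1181, 419 and 661 with the Myc label, and Col6a2 was 869, 1120.4 and 745 against 826, 991, 378 and 514 (log2 change -0.51, adjusted p = 0.5). Myc-labelled replicates 1 and 2 lay among the controls for both, and without replicates 3 and 4 the change of Col6a2 was 0.01. In quadriceps Col6a1 was 772 and 859 against 560.5 and 1054 and Col6a2 was 646 and 744 against 563 and 997.

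Col12a1, a fibril-surface collagen of tendon and fascia, was 340.2, 431 and 276 in soleus controls and 404, 286, 85.2 and 186 with the Myc label (log2 change -0.73, adjusted p = 0.515). In quadriceps Col12a1 was 138 and 299 against 13.4 and 137 (log2 change -2.20, SE 1.39, adjusted p = 0.892). Myc-labelled replicate 1 was far below the other 3 quadriceps libraries, and replicate 2 was level with control replicate 1. Col14a1, a related collagen, was 45.9, 83.4 and 69.3 against 72, 77.8, 44.9 and 96 in soleus, where its highest value was in Myc-labelled replicate 4, and 154 and 167 against 38.1 and 173 in quadriceps.

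The 6 small leucine-rich proteins bind collagen and shape its fibrils. Their median change was -0.51 in soleus and -0.42 in quadriceps, with 6 of 6 negative in each and 0 called. Fibromodulin (Fmod), abundant in tendon, was 3724, 3964 and 3637 in soleus controls and 3008, 2661, 989 and 1500.3 in Myc-labelled soleus (log2 change -1.02, SE 0.43, 95% interval -2.10 to 0.06, limma, adjusted p = 0.255). Chondroadherin (Chad), of cartilage and tendon, was 588, 747 and 703 against 491, 406, 149.7 and 289.96 (log2 change -1.15, SE 0.41, adjusted p = 0.177). For both genes the controls lay close together, all 4 Myc-labelled values were below them, and replicate 3 was the lowest.

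Both genes varied widely in quadriceps. Fmod was 1913 and 549 in the controls and 35 and 1692 with the Myc label, a highest value 54.7 times the lowest. Chad was 164 and 71.5 in the controls and was listed at 0 in Myc-labelled replicate 1 and at 159 in replicate 2 (log2 change -3.11, SE 3.22, adjusted p = 0.94), a change whose size depends on the pseudocount. For each gene the control values themselves differed by more than 2 times, and Myc-labelled replicate 2 lay between them. The exons of Chad lie inside an intron of Acsf2 on the opposite strand, and Acsf2 had a soleus log2 change of -0.04 (adjusted p = 0.934).

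Prelp, which anchors basement membrane to collagen, was 1289, 1343 and 1001 in soleus controls and 1079, 1020.4, 553 and 752 with the Myc label (log2 change -0.55, SE 0.24, adjusted p = 0.229), and 778 and 581 against 338 and 975 in quadriceps. Decorin (Dcn) was 3159, 3877 and 4648 against 3308, 3549, 2048 and 2425 in soleus (log2 change -0.48, adjusted p = 0.252) and 4473 and 4149 against 2735 and 6194 in quadriceps. Decorin was highest in soleus control replicate 3, the control in which most collagens were lowest. Biglycan (Bgn) and lumican (Lum) had highest to lowest ratios of 2.35 and 1.9 in soleus and 4.16 and 2.32 in quadriceps, with the lowest value in soleus Myc-labelled replicate 3 and quadriceps Myc-labelled replicate 1 for both.

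Adhesive and elastic glycoproteins make up 11 of the members. Their median change was -0.68 in soleus and -0.55 in quadriceps, with 10 of 11 negative in each and 0 called. Thrombospondin 2 (Thbs2), a matrix protein that modulates cell adhesion, had the smallest adjusted p of all members in soleus: it was 641, 519.9 and 548 in controls and 495, 269, 166 and 229.6 with the Myc label (log2 change -1.09, SE 0.34, 95% interval -1.88 to -0.29, limma, adjusted p = 0.104). In quadriceps Thbs2 was 203 and 319.99 against 71 and 191 (log2 change -1.12, SE 0.54, adjusted p = 0.856). It was the only member whose Myc-labelled values were all below all controls in both muscles. Of all genes 8.35% had this in soleus and 16.9% in quadriceps. The share of all genes with it in both was not counted, so this does not set Thbs2 apart.

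Cartilage oligomeric matrix protein (Comp), which binds collagen in tendon and cartilage, was 416, 444 and 448 in soleus controls and 376, 331, 140.5 and 166 with the Myc label (log2 change -0.91, SE 0.35, adjusted p = 0.18). The groups did not overlap in soleus, while in quadriceps (102 and 53.2 against 17.5 and 139) the Myc-labelled values were both the lowest and the highest. Tenascin C (Tnc), an adhesion-modulating glycoprotein of tendon and healing tissue, was 66.3, 37.8 and 52.8 against 58.4, 35.2, 10.4 and 19.8 in soleus (log2 change -0.96, adjusted p = 0.29). In quadriceps Tnc was 49.9 and 46.5 against 4.11 and 32.6 (log2 change -1.91, SE 0.91, adjusted p = 0.837), with no overlap.

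Cilp2, a cartilage matrix protein, was 652, 584 and 319 in soleus controls and 557, 438, 119.7 and 181 with the Myc label. In quadriceps Cilp2 was 144 and 109 against 3.09 and 206 (log2 change -2.12, SE 2.45, adjusted p = 0.945). The low quadriceps value is that of about 3 reads, and the other Myc-labelled library was above both controls. Periostin (Postn), a collagen-binding protein of tissue under load, was 883, 1183 and 541 against 1033, 822, 228 and 409.7 in soleus and 94 and 476 against 45.3 and 94.7 in quadriceps, where control replicate 2 held the high value.

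The other glycoproteins were fibronectin (Fn1), fibrillin 1 (Fbn1), elastin (Eln), Sparc, Thbs1 and Thbs4. Over soleus libraries the highest value was 4.87 times the lowest for Fn1, 4.7 for Thbs4 and 4.06 for Thbs1, but 2.06 for Fbn1 and 2.05 for Eln. Elastin was the glycoprotein that was not lowest in a Myc-labelled soleus library. In quadriceps Thbs4 spread 8.72 times and Sparc 1.39 times.

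Tenomodulin, scleraxis and mohawk are the members closest to tendon cells themselves. Their median change was -1.21 in soleus and -1.40 in quadriceps, with 2 of 3 and 3 of 3 negative and 0 called. Tnmd was 293, 329 and 268 in soleus controls and 222, 206, 56.4 and 99.95 with the Myc label (log2 change -1.21, SE 0.48, 95% interval -2.34 to -0.09, limma, adjusted p = 0.196). In quadriceps Tnmd was 128 and 40.7 against 4.11 and 112 (log2 change -1.61, SE 1.91, adjusted p = 0.945). The soleus groups did not overlap, and in quadriceps the low value is that of about 4 reads while the other Myc-labelled library lay between the controls.

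Mkx was 40.6, 73.7 and 52.8 in soleus controls and 49.6, 31, 4.61 and 20.8 with the Myc label (log2 change -1.39, SE 0.63, adjusted p = 0.219), and 26.7 and 9.14 against 1.03 and 18.8 in quadriceps. It had the widest soleus range of all members, 3.74 on the log2 scale. Its lowest soleus value, in Myc-labelled replicate 3, was that of about 4 reads, and its soleus controls held about 45 to 76. Scx was 256, 277 and 146 against 358, 294, 164 and 171 in soleus (log2 change 0.10, SE 0.32, adjusted p = 0.903) and 48.7 and 143 against 63.8 and 75 in quadriceps. Unlike Tnmd and Mkx, Scx was lowest in a control library in both muscles and highest in soleus Myc-labelled replicate 1.

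The whole of Scx lies inside an intron of Bop1, a gene of ribosome assembly, on the opposite strand, and whether reads were counted by strand is not given in the sources used here. Bop1 rose in soleus, from 355, 397 and 374 to 705, 776, 771 and 995 (log2 change 1.10, SE 0.13, limma, adjusted p = 3.09e-05). In quadriceps it was 439 and 401 against 715 and 656 (log2 change 0.71, adjusted p = 0.387). Reads from Bop1 introns and reads from Scx cannot be told apart without strand, and the part of Bop1 in the Scx values was not tested. Among other members, 79% of the exonic bases of Prelp, 72.6% of those of Tnc and 57.6% of those of Mkx lie inside noncoding genes that are not listed for either muscle.

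**Figure D3:**
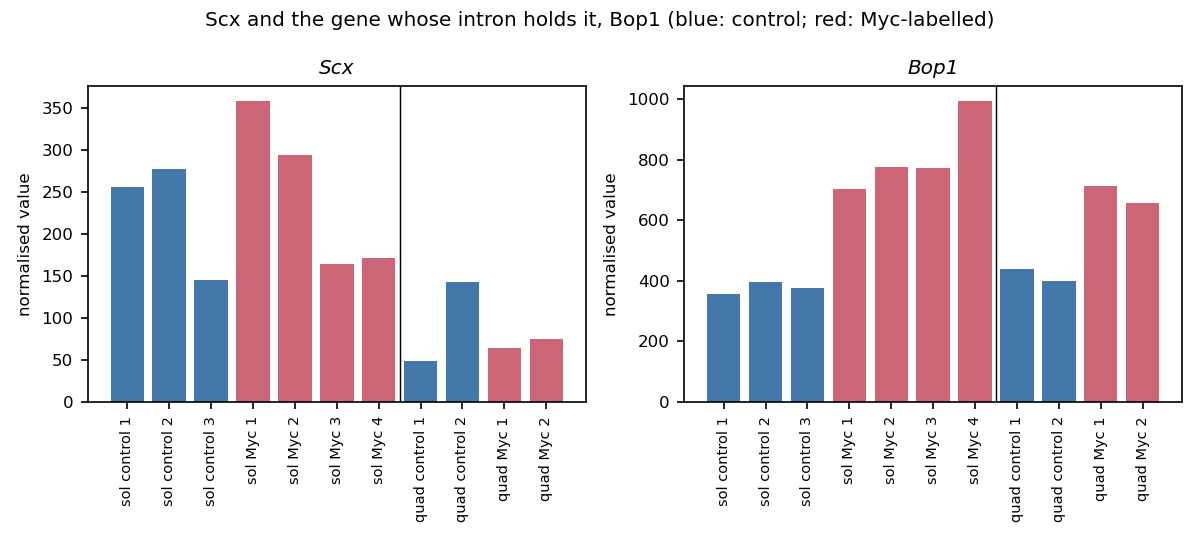
Normalised value of Scx (left) and of Bop1 (right), whose intron holds Scx, in each library (bars, linear axes from 0); controls are blue and Myc-labelled libraries red, and the line parts soleus from quadriceps. Bop1 is higher in each Myc-labelled library than in any control of its muscle, while the Scx groups overlap.

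The last group crosslinks or remodels matrix. Its median change was -0.12 in soleus and -0.22 in quadriceps, with 3 of 6 and 4 of 5 negative and 0 called. Lysyl oxidase (Lox), which crosslinks collagen and elastin, was 196, 178 and 139.7 in soleus controls and 242, 258, 188 and 150.4 with the Myc label (log2 change 0.27, adjusted p = 0.497), and 266 and 181 against 113 and 217 in quadriceps (log2 change -0.48, adjusted p = 0.897). Its relative Loxl1 was 240.3, 251 and 197 against 251, 212, 114 and 218 in soleus and 178 and 281 against 135 and 268 in quadriceps. Lox was lowest in a control in soleus, and Loxl1 in Myc-labelled replicate 3.

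The gelatinase Mmp2 was 971, 1143 and 1061 in soleus controls and 1028, 1082, 456 and 546 with the Myc label (log2 change -0.54, adjusted p = 0.441), and 659 and 778 against 565 and 963 in quadriceps. Timp2, an inhibitor of such enzymes that also takes part in activating Mmp2, was 1589, 1699.5 and 1883 against 1462, 1724, 808 and 1055 in soleus (log2 change -0.51, adjusted p = 0.313) and 1923 and 2191 against 1275 and 2446 in quadriceps. Replicates 3 and 4 were the lowest of soleus for both genes. Timp1 was 40.6, 27.2 and 3.52 against 45.8, 30.1, 8.06 and 18.8 in soleus, with its lowest value in control replicate 3. Timp3, an inhibitor that binds to the matrix, was 3762, 3573 and 3882 against 3547, 3649, 3991 and 4046: it had the narrowest soleus range of all members, 0.19 on the log2 scale, and its 2 highest values were in replicates 3 and 4. The exons of Timp1 and Timp3 lie inside introns of Syn1 and Syn3, which are not listed for either muscle.

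**Figure D4:**
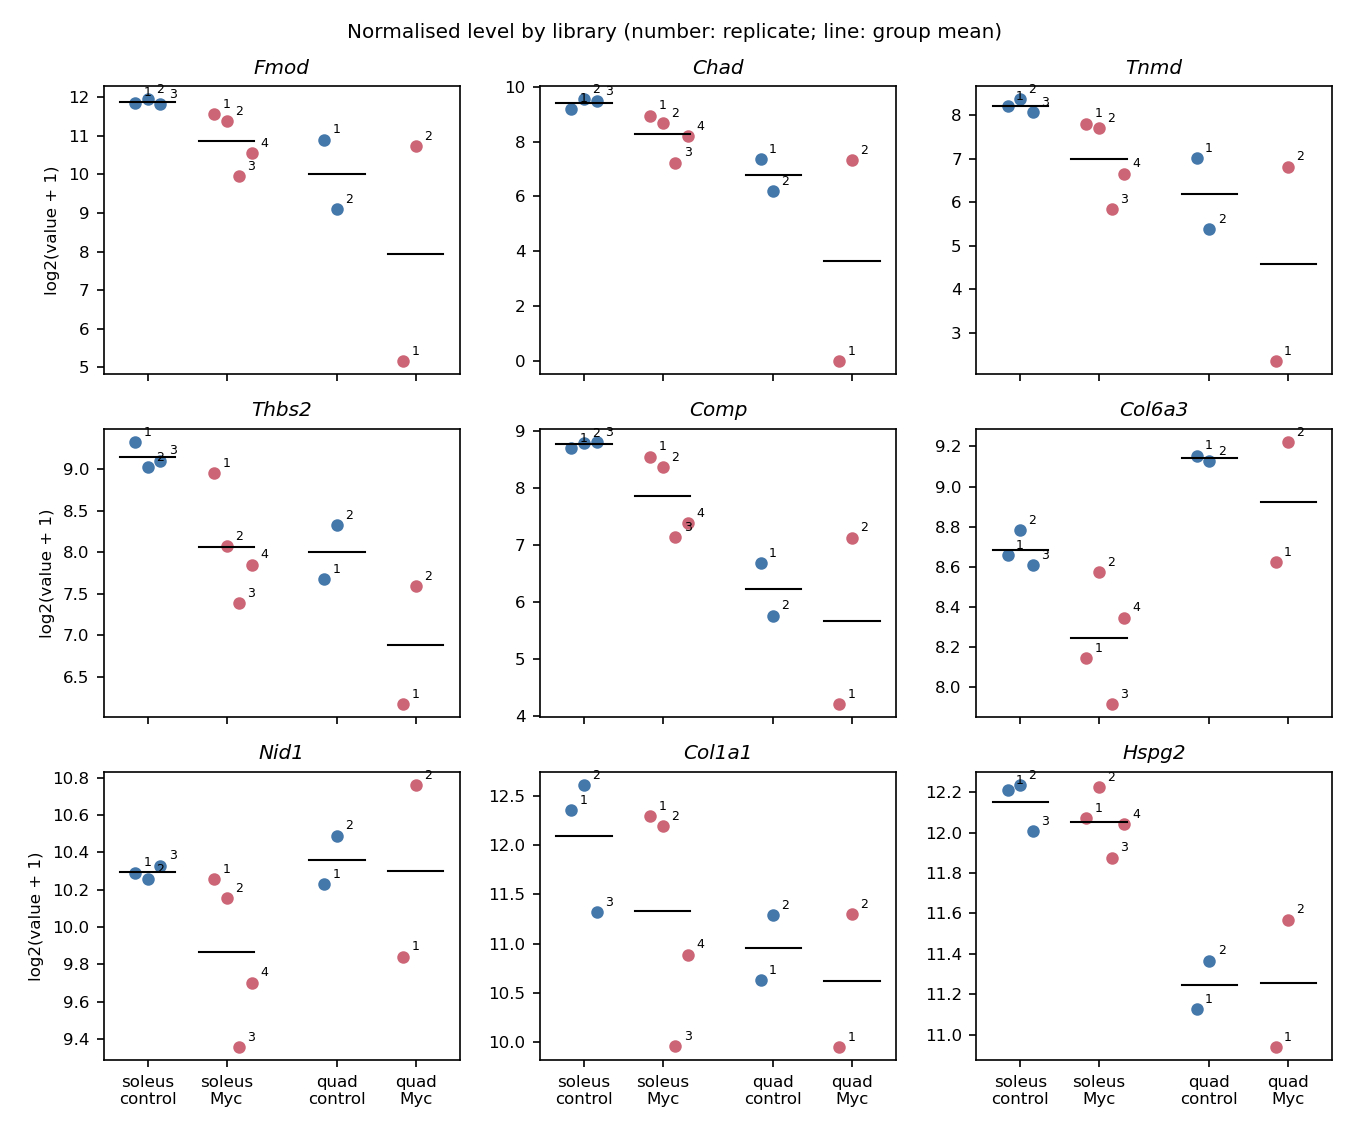
Level of 9 members as log2(value + 1) in each library (points, numbered by replicate; lines are group means; axes differ between panels and do not start at 0). The 4 Myc-labelled soleus points lie below the 3 controls for Fmod, Chad, Tnmd, Thbs2, Comp, Col6a3 and Nid1, and overlap them for Col1a1 and Hspg2.

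Counted over all members, the 4 Myc-labelled soleus values lay below the 3 controls for 7 of 47 (14.9%, against 8.35% of all genes): Nid1, Col6a3, Fmod, Chad, Thbs2, Comp and Tnmd. They lay above for 0 (12.7% of all genes). In quadriceps both Myc-labelled values lay below both controls for 4 of 46 (8.7%, against 16.9%), Col11a1, Col12a1, Tnc and Thbs2, and above for 0 (18.3%). The quadriceps share was thus below the background and the soleus share above it.

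**Figure D5:**
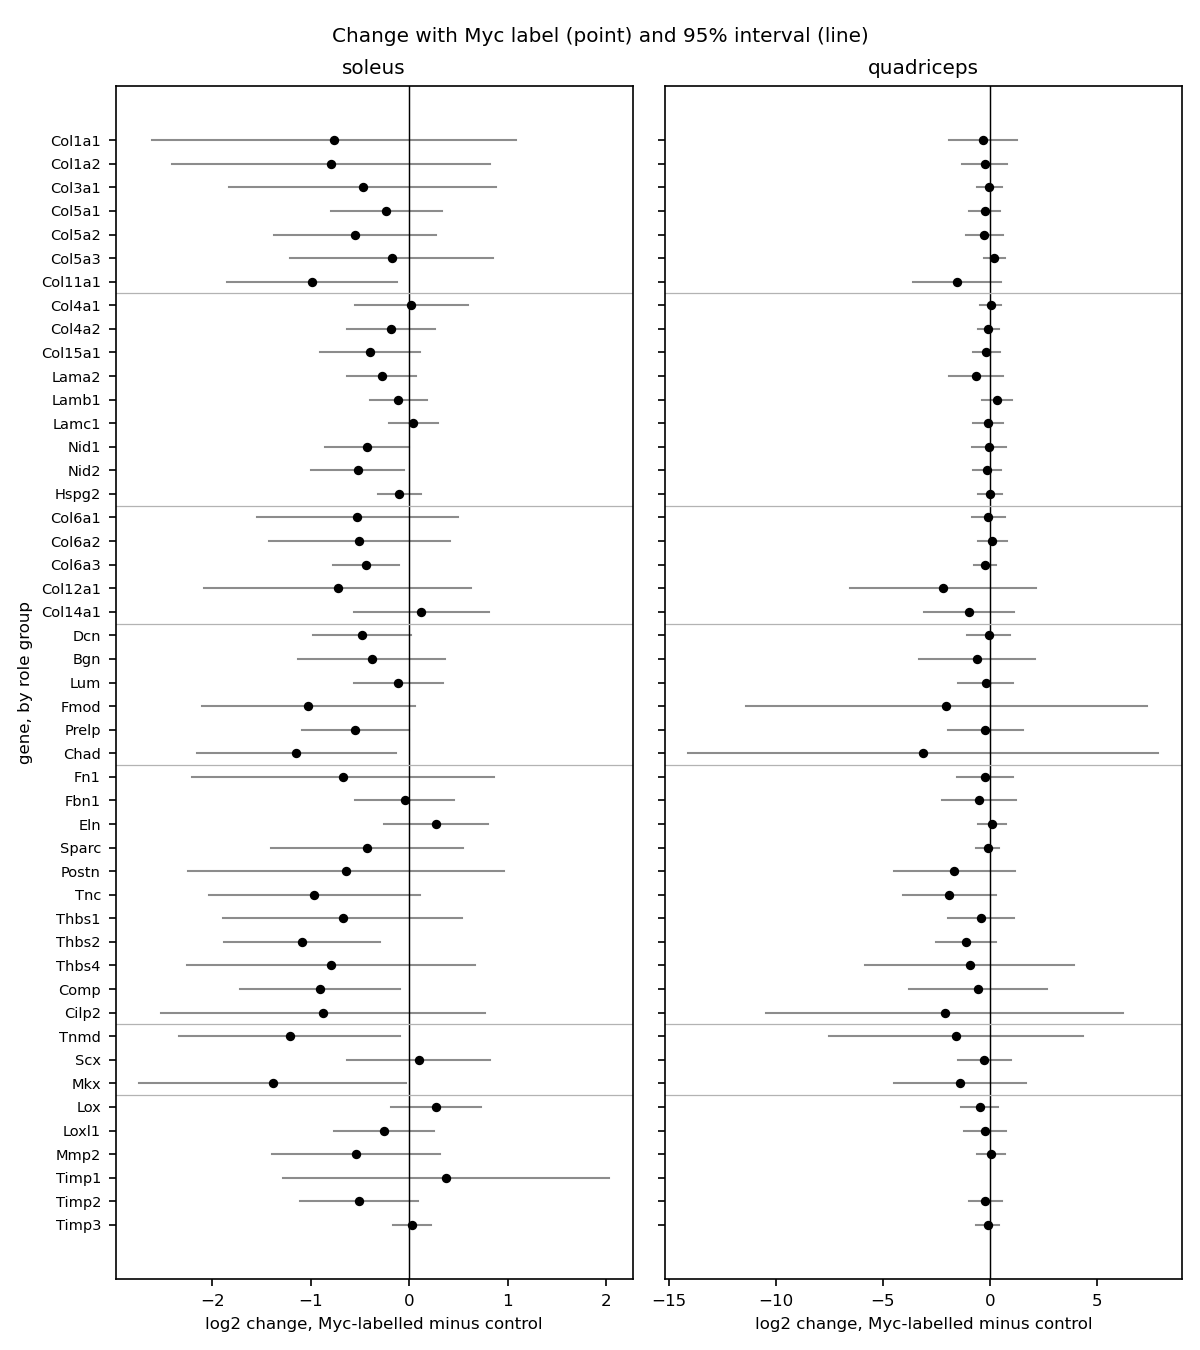
Log2 change, Myc-labelled minus control (point), with its 95% interval (line) for each member, by role group, in soleus (left) and quadriceps (right; the 2 axes have different scales). Most points lie left of 0 (39 of 47 and 39 of 46), and 0 members were called in either muscle.

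The 250 bases before the start of transcription were read from RefSeq (build GRCm38.p6) for the 30 members with an entry. The letters of 4 motifs, none of which can hold another, were searched on both strands. They were the E-box that Myc binds, spelt CACGTG; the GC box bound by Sp1, spelt GGGCGG; the box of nuclear factor Y, spelt CCAAT; and the TATA-type box near some starts, spelt TATAAA. The E-box was in 0 of 30 members' windows, against 6.86% of 27025 windows of all genes and 9.93% of 10596 windows of genes listed here. The GC box was in 18 (60%, against 35.4% and 62.6%), the nuclear factor Y box in 11 (36.7%, against 37.5% and 40%) and the TATA-type box in 5 (16.7%, against 14.3% and 8.41%). A match is a description of the letters, and its absence says nothing of a factor's binding.

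The windows of 5 of the 7 members whose soleus groups did not overlap are printed, so that their letters can be set beside the levels above. Each runs 5′ to 3′ along the gene's strand and ends at the base before the start; capitals mark matches to any of these motifs on either strand. They lie at chr1:134037004-134037253 (plus strand, Fmod), chr11:94564797-94565046 (plus, Chad), chrX:133850758-133851007 (plus, Tnmd), chr17:14694263-14694512 (minus, Thbs2) and chr1:90843972-90844221 (minus, Col6a3).
Fmod: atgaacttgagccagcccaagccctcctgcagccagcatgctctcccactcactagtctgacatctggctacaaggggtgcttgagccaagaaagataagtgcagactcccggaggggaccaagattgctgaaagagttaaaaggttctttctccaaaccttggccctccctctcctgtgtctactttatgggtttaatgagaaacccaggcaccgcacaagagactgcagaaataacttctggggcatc
Chad: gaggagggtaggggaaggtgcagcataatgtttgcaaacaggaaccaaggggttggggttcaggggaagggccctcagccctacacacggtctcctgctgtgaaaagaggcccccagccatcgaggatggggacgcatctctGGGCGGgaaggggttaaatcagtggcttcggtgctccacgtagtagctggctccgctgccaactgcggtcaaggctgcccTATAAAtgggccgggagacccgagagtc
Tnmd: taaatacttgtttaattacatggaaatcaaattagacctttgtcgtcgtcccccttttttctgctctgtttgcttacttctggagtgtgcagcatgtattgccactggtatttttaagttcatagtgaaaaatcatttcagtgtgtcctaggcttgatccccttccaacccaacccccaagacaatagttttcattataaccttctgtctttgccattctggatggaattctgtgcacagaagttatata
Thbs2: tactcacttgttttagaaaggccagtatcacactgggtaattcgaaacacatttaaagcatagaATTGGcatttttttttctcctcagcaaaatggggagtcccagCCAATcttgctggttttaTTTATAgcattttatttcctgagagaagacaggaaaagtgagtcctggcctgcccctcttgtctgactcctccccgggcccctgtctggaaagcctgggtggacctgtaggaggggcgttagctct
Col6a3: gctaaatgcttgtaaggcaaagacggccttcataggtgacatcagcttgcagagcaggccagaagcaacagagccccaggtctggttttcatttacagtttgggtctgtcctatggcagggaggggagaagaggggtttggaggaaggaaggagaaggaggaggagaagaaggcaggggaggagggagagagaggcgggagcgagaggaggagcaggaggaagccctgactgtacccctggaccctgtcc
Chad had 1 GC box and 1 TATA-type box, Thbs2 had 2 nuclear factor Y boxes and 1 TATA-type box, and Fmod, Tnmd and Col6a3 had 0 matches to the 4 motifs. The window of Nid1, which is not printed, held both the GC box and the nuclear factor Y box.

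Levels per kilobase of exon allow the members to be compared with each other. In soleus controls the highest were Sparc at 2718 ± 645 normalised reads per kilobase (mean and SD, n = 3), Dcn at 2009 ± 384, Fmod at 1209.9 ± 54.2, Col1a2 at 1032 ± 314 and Bgn at 987 ± 148. Neighbours in this order differed by less than the sum of their SDs, except Dcn and Fmod. In quadriceps controls the highest were Dcn at 2223 ± 118 (n = 2), Sparc at 1912 ± 244, Col3a1 at 768 ± 170.4, Timp2 at 555 ± 51.1 and Col1a2 at 533 ± 95.2. Here, too, neighbours differed by less than the sum of their SDs, except Sparc and Col3a1. The lowest in soleus was Tnc at 6.73 ± 1.83 and in quadriceps Mkx at 4.91. The 2 muscles were scaled separately by the authors, so only the order within a muscle is given.

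Genes that act on the matrix but are not members are from lists that were likewise chosen with earlier results known. Of 25 tested genes of collagen synthesis and processing, 1 rose in soleus and 0 fell: Colgalt1, which adds galactose to collagen (log2 change 0.52, SE 0.10, limma, adjusted p = 0.00307). Of 21 genes of the TGF-beta pathway, a main inducer of matrix genes, 1 fell, the receptor Tgfbr2 (-0.42, adjusted p = 0.0465), and 0 rose. Of 22 matrix receptors 0 were called. Over all genes tested in soleus 7.06% were called higher and 2.23% lower, so 1 call in lists of this size is near that share. The medians of these lists in soleus were -0.17, -0.11 and -0.19, against -0.48 for the members, and in quadriceps, where 0 were called, -0.29, -0.24 and -0.20.

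Among cell type markers, 1 of 14 fibroblast markers fell in soleus (Ly6a, -0.34, adjusted p = 0.046), as did 1 of 15 tendon and cartilage markers (Angptl7, -0.72, adjusted p = 0.0102) and 1 of 10 mural cell markers (Abcc9, -0.36, adjusted p = 0.0277). Called markers numbered 0 of 12 endothelial, 0 of 10 macrophage, 0 of 10 Schwann cell, 0 of 8 adipocyte, 0 of 5 erythroid, 0 of 17 muscle fibre, 0 of 12 slow fibre and 0 of 6 satellite cell genes. Of 24 ribosome biogenesis genes 24 rose in soleus. The shares of all soleus genes were 7.06% called higher and 2.23% called lower. In quadriceps 0 genes of any of these lists were called. The tendon and cartilage list had a median of -0.58 in soleus and -0.72 in quadriceps, and the fibroblast list -0.24 and -0.18.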

How the data were processed

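RNA-seq levels were taken from 2 deposited tables, 1 for each muscle, which hold a normalised signal: for each gene, estimated reads over the library's size factor, as read from the values themselves. Per the submitters' processing notes STAR 2.7.8a, Partek and DESeq2 were used, with no role or order given, and both mm10 and mm39 are named. The signal deposited by the authors is not whole counts, so no count model was fitted. Dividing by the value of 1 read gave the estimated depth (11.1 to 18.4 M reads).

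Libraries were grouped by title. Genes reaching 10 in 3 libraries of soleus, or in 2 of quadriceps, were tested. The test was limma 3.58.1 (R 4.3.3, statmod 1.5.0) on log2(value + 1), with trend and robust moderation. Benjamini-Hochberg adjustment was over all genes tested. The 1 added to each value understates changes of low genes. A joint model of the 11 libraries, taken as independent, compared the changes of the muscles. The fits were also run on simulated data, and the share of changes recovered there is not given here. The members, the other gene lists and the marker lists were chosen with earlier results of these data known. Values in every library are given for members with the smallest p or the widest range in their role group, and log2 changes in soleus for the 3 members of smallest p in each role group, in quadriceps for the member of widest log2(value + 1) range in each, and in both for members without overlap. Alternatives were other scalings, filters, pseudocounts, moderation, limma-voom, a replicate block, 1 joint fit and leaving out libraries. Promoter letters are from RefSeq tables of GRCm38.p6, and exon lengths and neighbours from GENCODE.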

Additional observations from a re-analysis of the deposited data

Results flagged for a closer look

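Fibrillin 1 (Fbn1), a microfibril protein, stood out in soleus Myc-labelled replicate 3. The 4 Myc-labelled values were 486, 543, 264 and 491, and the gap of the lowest to its neighbour, on the log2 scale, was 0.845 of the group's range, above Dixon's 95% critical value. The controls were 449, 505 and 384. Of 47 members 1 was picked out in this way, and chance picks out about 1 in 20.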

How the results depend on the processing

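In none of the settings run was a member called as changed differently in the 2 muscles. The count of called members in soleus, 0, became 3 without robust moderation, 3 with the replicate block and 2 without both soleus Myc-labelled replicates 3 and 4, and ranged from 0 to 3 when 1 library was left out. In quadriceps it ranged from 0 to 10 when 1 library was left out, and was 0 with the replicate block. The cause was not tested. The soleus median ranged from -0.62 to -0.25 with 1 library left out and was -0.004 without replicates 3 and 4; the quadriceps median ranged from -0.76 to 0.27, positive without Myc-labelled replicate 1. Scx in soleus turned to -0.19 without control replicate 3, -0.11 without Myc-labelled replicate 1 and -0.01 without replicate 2. In quadriceps Chad, Cilp2 and Tnmd were 0.55, 0.72 and 0.62 without Myc-labelled replicate 1 and -6.77, -4.95 and -3.84 without replicate 2. Without soleus replicates 3 and 4, Col1a2 was 0.050 and Col6a2 0.0099. The other member changes printed with an adjusted p kept their direction. Over all members, 8 of 46 were negative in quadriceps without Myc-labelled replicate 1, against 39, and 25 of 47 in soleus without replicates 3 and 4, against 39.

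The members that passed with the replicate block were Col11a1 (-0.80, adjusted p = 0.0442), Prelp (-0.50, 0.0194) and Thbs2 (-1.01, 0.0217). In their deviations from group means, libraries of equal number correlated by 0.001, 0.076 and 0.138 in soleus and 0.144 in quadriceps. With 2 libraries a group, every quadriceps pair gives 0.144 or -0.144. Not every soleus library correlated best with its own number. These correlations cannot decide whether libraries of equal number are paired, and the labels give only the number. Over all genes the block gave 1216 calls in soleus against 1184, 4 in quadriceps against 1 and 20 for the difference against 0. Without robust moderation 4 genes were called for the difference, and 1 fit over all 11 libraries called 94 genes in quadriceps. The count test and the TMM scaling were not run, since whole reads could not be recovered. Low quadriceps values of a few reads (Chad, Cilp2, Col11a1, Mkx, Tnmd and Tnc in Myc-labelled replicate 1) make their log2 changes depend on the pseudocount. With 2 libraries a group the intervals are wide.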

Other observations

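Schwann cell markers had a median log2 change of 0.37 in soleus (10 genes) and 0.05 in quadriceps (6 genes), macrophage markers -0.42 and -0.41 (10 genes each), and adipocyte markers -0.48 and -0.57 (8 genes each), with 0 called. The slow fibre list had a median of -4.09 in quadriceps, where 0 of 12 genes were called, and -0.06 in soleus.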
